A study of Mus musculus with 4 samples.

Results

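The skeletal muscle genes described here are 10 genes of striated muscle, Acta1, Ckm, Myh1, Myh2, Myh4, Tnnt3, Tnni2, Mylpf, Actn3 and Pvalb, read in mouse prostate RNA. They were found as the non-control probes whose gene name in the scanner files equals 1 of these symbols, which gave 17 of 41174 probes and 10 of 27974 genes. All 10 genes were well above background on all 4 arrays.

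The 4 groups of male mice, 8 weeks of age and 3 to a group, are the following. TRAMP mice, which carry SV40 early genes driven by the rat probasin promoter in prostate epithelium, received either 600 mg/kg of γ-TmT (a mixture of tocopherols rich in the gamma form of vitamin E, TmT below) or olive oil, and C57BL/6 mice received the same TmT dose or olive oil. All had eaten AIN-76A diet, were fasted overnight, were dosed by gavage, and gave their prostates 12 hours later. Each group has 1 Agilent array with 1 colour (Cy3), and the labels do not say whether its RNA came from 1 animal or from several, nor the background strain of the TRAMP mice. A difference between 2 arrays therefore has no replicate check, and the ± beside it is the scanner software's error for the spots.

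Striated muscle contracts when myosin heads of the thick filament pull on actin of the thin filament, and troponin on the thin filament makes that pull depend on calcium. Fast fibres use their own versions of many of these proteins, with parvalbumin binding the calcium and creatine kinase restoring the ATP. These genes are textbook markers of skeletal muscle, most of them of its fast fibres, and not of prostate epithelium or of prostate stroma, which is rich in smooth muscle. Acta1 and Ckm do not mark fast fibres alone. In the mouse, the urethra to which the prostate lobes attach is ringed by a striated sphincter. Whether such muscle was in the dissected tissue was not tested.

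Levels are log2 of the signal over the array's 75th percentile, so a level of 0 is the 75th percentile and a difference of 1 is 2-fold. Levels are compared between arrays for the same probe and never between probes. A gene stands for its brightest probe. The probes are 60 bases long, with positions on mm9 as the scanner files give them. These 6 probes are shown as examples. Those of Acta1, Mylpf, Tnnt3 and Ckm gave differences of at least 2-fold between the genotypes after oil, as did the Pvalb probe, which is not shown. The Myh1 and Myh2 probes belong to genes of the same family, and whether each reads only its own gene was not tested. The Myh1 probe shown is not its brightest. They are given 5′ to 3′ with no capitals, since no base is singled out. The Mylpf, Tnnt3, Ckm, Myh1 and Myh2 probes span an intron in the genome, so their coordinates cover more than their length.
Acta1 (chr8:126416197-126416256, minus strand): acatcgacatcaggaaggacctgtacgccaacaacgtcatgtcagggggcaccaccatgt
Mylpf (chr7:134356749-134356985, plus strand): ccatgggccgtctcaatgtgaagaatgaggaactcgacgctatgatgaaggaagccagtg
Tnnt3, brightest probe (chr7:149698500-149700262, plus strand): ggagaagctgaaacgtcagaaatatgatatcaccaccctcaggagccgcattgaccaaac
Ckm (chr7:20002222-20004829, plus strand): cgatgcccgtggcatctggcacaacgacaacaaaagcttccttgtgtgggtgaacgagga
Myh1, probe across an intron (chr11:67022830-67023932, plus strand): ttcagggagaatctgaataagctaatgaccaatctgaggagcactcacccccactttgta
Myh2, brightest probe (chr11:67006311-67006475, plus strand): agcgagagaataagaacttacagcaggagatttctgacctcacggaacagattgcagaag

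On the 4 arrays, 63.9 to 74.1% of 43379 spots were well above background, lowest on TRAMP after TmT, and no spot was saturated. Prostate identity was present on every array: all 12 of the listed prostate epithelium markers were well above background on all 4. The other striated muscle lists were also read widely, with 88 of their 93 genes on the array. Spots of the 245 probes printed 10 times had a median SD of 0.128 to 0.193 (log2) within an array, which is the technical spread on that array alone.

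**Figure D1:**
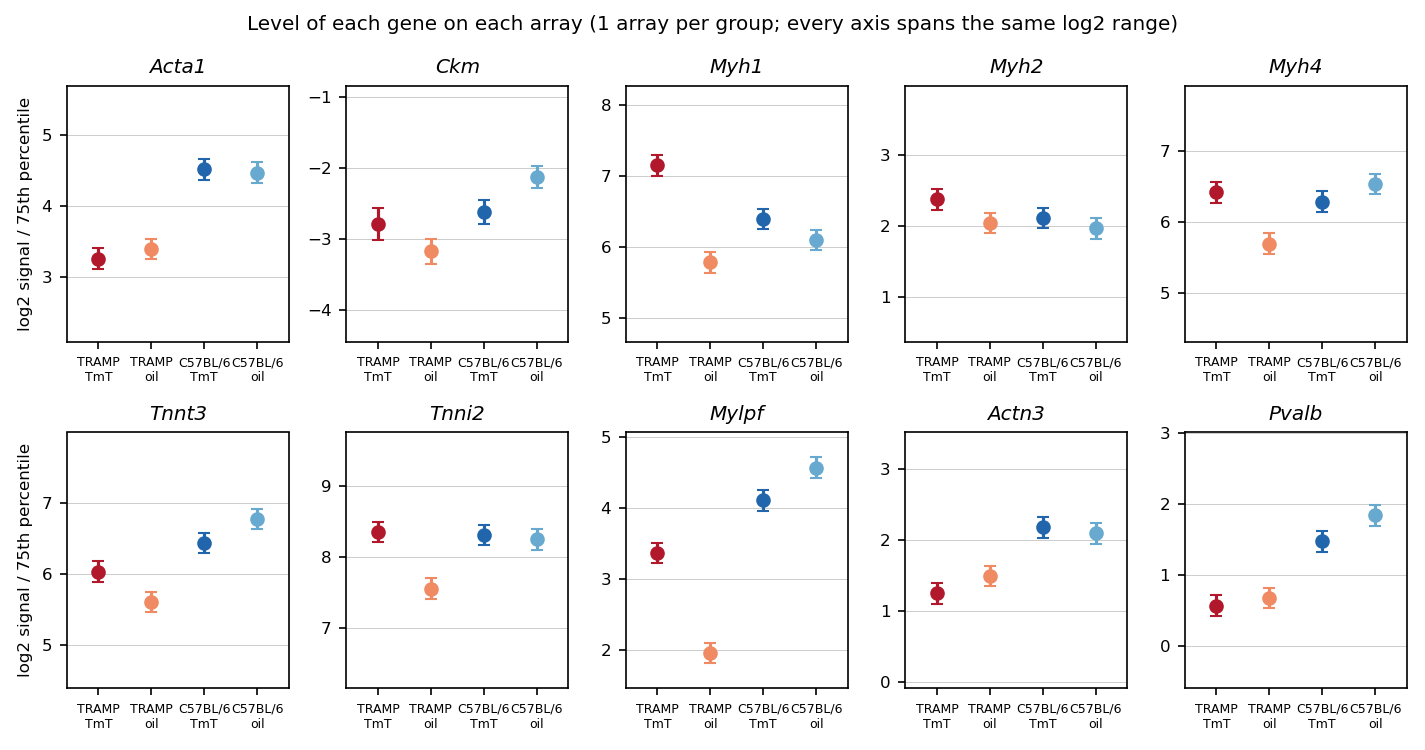
Level of each of the 10 genes (log2 of signal over the array's 75th percentile) on the arrays of TRAMP after TmT, TRAMP after oil, C57BL/6 after TmT and C57BL/6 after oil. Bars are the scanner software's spot error. TRAMP after oil is the lowest array for 6 of the 10 genes, and Mylpf spans the widest range.

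Among the thick filament genes, Mylpf, the phosphorylatable light chain of fast myosin, had levels of 3.36 in TRAMP after TmT, 1.95 in TRAMP after oil, 4.10 in C57BL/6 after TmT and 4.56 in C57BL/6 after oil. The TRAMP oil array stood lowest and the C57BL/6 oil array highest. Myh4, the heavy chain of the fastest (IIB) fibres, had levels of 6.42 in TRAMP after TmT, 5.70 in TRAMP after oil, 6.29 in C57BL/6 after TmT and 6.54 in C57BL/6 after oil. Its TRAMP oil array was the low one, with the other arrays within 0.25 of each other. Myh1, the heavy chain of IIX fibres, had levels of 7.15 in TRAMP after TmT, 5.79 in TRAMP after oil, 6.39 in C57BL/6 after TmT and 6.10 in C57BL/6 after oil. Here TRAMP after TmT was highest and TRAMP after oil lowest. Myh2, the heavy chain of IIA fibres, had levels of 2.37, 2.03, 2.11 and 1.96 on TRAMP after TmT, TRAMP after oil, C57BL/6 after TmT and C57BL/6 after oil, a range no wider than about 2 spot errors, and its other probes gave another picture, described further on.

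Among the thin filament genes, Acta1, skeletal muscle actin, had levels of 3.26 in TRAMP after TmT, 3.40 in TRAMP after oil, 4.52 in C57BL/6 after TmT and 4.47 in C57BL/6 after oil. Both TRAMP arrays lay below both C57BL/6 arrays, and the 2 treatments lay within 0.14 of each other in either genotype. Tnnt3, fast troponin T, which ties the troponin complex to the thin filament, had levels of 6.03 in TRAMP after TmT, 5.61 in TRAMP after oil, 6.43 in C57BL/6 after TmT and 6.77 in C57BL/6 after oil. Its TRAMP arrays were again the lower pair. Tnni2, fast troponin I, the inhibitory subunit, had levels of 8.35 in TRAMP after TmT, 7.56 in TRAMP after oil, 8.32 in C57BL/6 after TmT and 8.25 in C57BL/6 after oil. Only its TRAMP oil array was apart, while the other levels lay within 1 spot error of each other.

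Actn3, the fast-fibre alpha-actinin that anchors thin filaments at the Z disc, had levels of 1.25 in TRAMP after TmT, 1.50 in TRAMP after oil, 2.18 in C57BL/6 after TmT and 2.10 in C57BL/6 after oil. Pvalb, parvalbumin, which binds calcium and speeds relaxation, had levels of 0.57 in TRAMP after TmT, 0.68 in TRAMP after oil, 1.47 in C57BL/6 after TmT and 1.84 in C57BL/6 after oil. In both genes the genotypes separated and the treatments of 1 genotype did not separate by more than 0.37. Ckm, muscle creatine kinase, had levels of -2.78 in TRAMP after TmT, -3.17 in TRAMP after oil, -2.62 in C57BL/6 after TmT and -2.12 in C57BL/6 after oil. Its signal was 10.3 to 37.0 intensity units, and the error of its differences reached 0.28.

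The order of arrays for a gene was not the same throughout. The lowest array was TRAMP after oil for 6 genes, TRAMP after TmT for 3 (Acta1, Actn3 and Pvalb) and C57BL/6 after oil for 1 (Myh2). The highest was C57BL/6 after oil for 5, TRAMP after TmT for 3 and C57BL/6 after TmT for 2.

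The genotypes given vehicle were compared as TRAMP after oil against C57BL/6 after oil, a pair in which the transgene and any other difference between the 2 lines cannot be told apart. Skeletal muscle genes were lower in TRAMP: 9 of 10 lay below 0 with a median of -0.94 (-0.07 over all 18921 genes measured on both arrays), and 5 of 10 were at least 2-fold lower against 0 higher. Over all genes, 54.5% lay below 0 and 15.6% were at least 2-fold different, 7.84% lower and 7.74% higher. In bulk RNA, fewer muscle cells and less of these RNAs per cell cannot be told apart. Mylpf was at -2.61 ± 0.20 (log2) on the arrays as deposited, a value set beside its neighbouring spots below. Tnnt3 was at -1.17 ± 0.20, Pvalb at -1.16 ± 0.20, Acta1 at -1.07 ± 0.20 and Ckm at -1.05 ± 0.23. Those 4 lie within 1 spot error of the 2-fold line, and Myh4 at -0.84 ± 0.20 lies as close on the other side, so the count of 5 turns on small shifts. Tnni2 at -0.69, Actn3 at -0.60, Myh1 at -0.31 and Myh2 at 0.07 filled the rest of the range.

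After TmT the same genotype comparison, TRAMP against C57BL/6, left a smaller gap. The median over the 10 genes was -0.28 (0.01 over all 17251 genes measured), 6 lay below 0, and 1 was at least 2-fold lower, with 0 higher. Over all genes, 49.4% lay below 0 and 14.5% were at least 2-fold different, 6.09% lower and 8.45% higher. Acta1 was at -1.26 ± 0.20, close to its value after oil. Actn3 at -0.93 ± 0.20 and Pvalb at -0.90 ± 0.21 were just short of 2-fold, and Mylpf was at -0.74 ± 0.20. Tnnt3 stood at -0.40 and Ckm at -0.17. Tnni2 at 0.04, Myh4 at 0.13, Myh2 at 0.26 and Myh1 at 0.76 ± 0.20 were above 0. The myosin heavy chain and troponin I levels of the TRAMP mice, by their brightest probes, were thus no lower than those of C57BL/6 after TmT, while actin, alpha-actinin and parvalbumin stayed low on both TRAMP arrays.

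**Figure D2:**
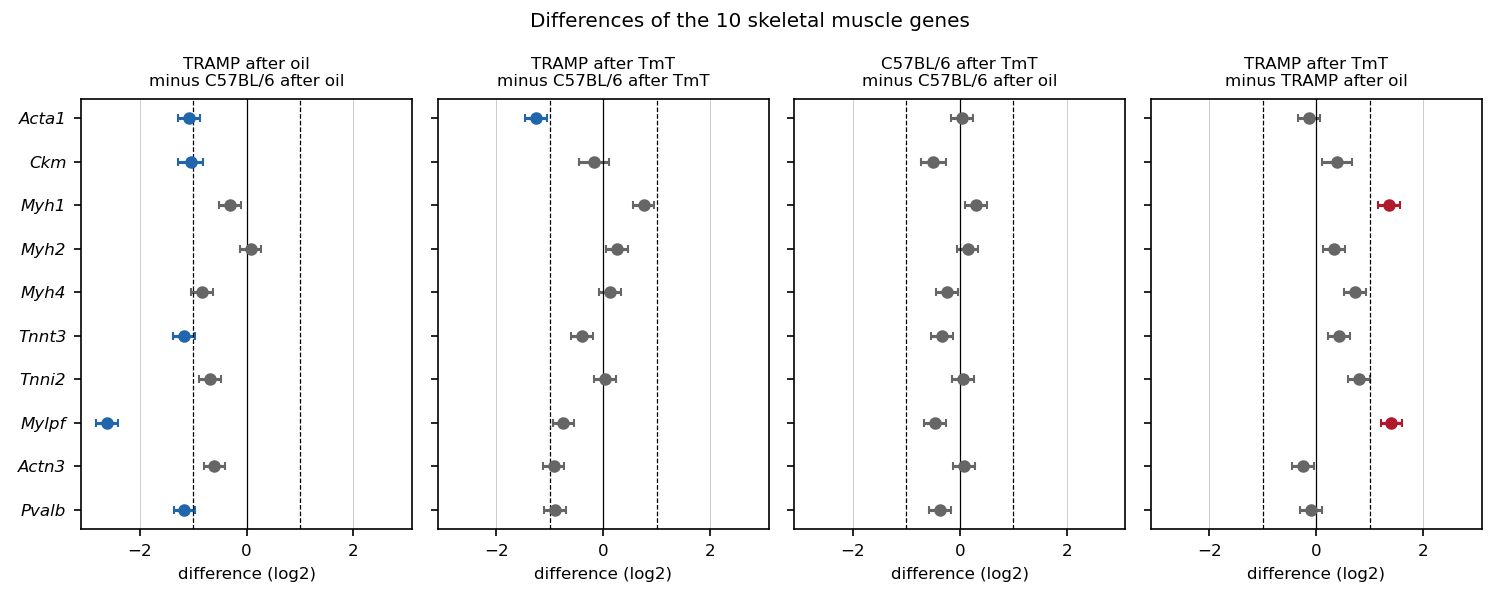
Difference (log2) of each of the 10 genes in the 4 pairs of arrays, with the spot error as a bar. Dashed lines mark 2-fold, blue points are at least 2-fold lower and red points at least 2-fold higher. The blue points are 5 in TRAMP after oil minus C57BL/6 after oil and 1 in TRAMP after TmT minus C57BL/6 after TmT, and the 2 red points are Myh1 and Mylpf in TRAMP after TmT minus TRAMP after oil.

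In C57BL/6 mice, TmT against oil left none of the 10 genes at least 2-fold different, where 5.74% of 18665 genes were, 3.12% higher and 2.63% lower. The median was -0.10 (0.02 over all genes) and the range -0.50 to 0.30. Ckm at -0.50 ± 0.23 and Mylpf at -0.46 ± 0.20 were the lowest, and Myh1 at 0.30 ± 0.20 the highest.

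In TRAMP mice, TmT against oil gave 7 of 10 genes above 0 and 3 below, where 44.1% of all genes lay below 0. The median was 0.41 (0.10 over all 17465 genes measured). With normexp background correction the median was 0.00028, below the 0.17 over all genes in that setting, and Tnnt3 and Myh4 were below 0. Mylpf at 1.41 ± 0.20 and Myh1 at 1.37 ± 0.20 were at least 2-fold higher and 0 genes were lower, where 13.5% of all genes were at least 2-fold different, 8.66% higher and 4.86% lower. Tnni2 at 0.79, Myh4 at 0.72, Tnnt3 at 0.43, Ckm at 0.39 and Myh2 at 0.33 followed. Actn3 at -0.24, Acta1 at -0.14 and Pvalb at -0.11 did not exceed 0.25 in size. The TRAMP oil array enters both this pair and the genotype pair after oil, so a low spot on it makes a gene high in this pair and low in the genotype pair. The difference between the TmT effect in TRAMP and in C57BL/6 was 1.86 for Mylpf, 1.07 for Myh1 and 0.97 for Myh4, and with 1 array per group it was not tested. After the local correction described below it was 0.65 for Mylpf, 1.15 for Myh1 and 0.79 for Myh4.

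An additive limma fit over all 4 arrays, with genotype and treatment as terms and 1 residual degree of freedom, passed none of the 10 genes for either term after Benjamini-Hochberg adjustment over 19925 genes. The lowest limma adjusted p for genotype was 0.211, in Acta1 with a fitted difference of -1.17 ± 0.32 (SE). Mylpf (-1.68 ± 0.51, limma adjusted p = 0.237) and Pvalb (-1.03 ± 0.33, limma adjusted p = 0.250) came next. At an unadjusted p under 0.05 the same limma fit held 3 of the 10 genes for genotype, these same 3, where 15.1% of all genes were under it, and 0 for treatment, where 6.26% were; the lowest limma adjusted p for treatment was 0.778, in Myh1 (0.83 ± 0.39). Over all genes limma passed 20 as higher (0.1%) and 7 as lower (0.0351%) for genotype and 0 (0%) in either direction for treatment, with 3008 and 1248 genes at an unadjusted p under 0.05 for genotype and treatment. On simulated data this fit recovered 0% of genes changed by 1 on the log2 scale, 10% of those changed by 2 and 82% of those changed by 3. It thus calls few differences of the size seen here. Of its 110 calls there, 15 were false. The simulation held no interaction, whereas the residual in the data is the interaction.

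The Mylpf value carried the largest difference of the group, and the spots around it moved with it. The 61 spots within 5 rows and columns that were well above background on both arrays had a median of -1.40 in TRAMP after oil minus C57BL/6 after oil, and the 60 such spots had a median of 1.41 in TRAMP after TmT minus TRAMP after oil. These neighbours are other probes of the array, and the neighbours of the other 9 genes had medians between -0.10 and 0.11 in the first of these pairs and between -0.04 and 0.45 in the second. The software's detrending factor at the Mylpf spot was 0.65 on the TRAMP oil array, against 0.96 to 0.99 on the others. When each spot was corrected for the median deviation of its neighbours, a step chosen after seeing the data, Mylpf was at -1.25 in TRAMP after oil minus C57BL/6 after oil and at 0.08 in TRAMP after TmT minus TRAMP after oil. The first stayed past 2-fold and the second did not. In that setting 5 of 10 genes were still at least 2-fold lower in TRAMP after oil, and Myh1, at 1.22, was the gene at least 2-fold higher after TmT in TRAMP. Over all genes in that setting, 7.25% were lower in the first of these pairs and 7.68% higher in the second, so 1 of 10 is near the background. The median of the 10 genes was then -0.93 in the genotype pair after oil and 0.21 in the treatment pair in TRAMP (0.10 over all genes). The genotype pair after TmT then held 2 genes at least 2-fold lower, Acta1 at -1.30 and Pvalb at -1.27 (5.67% of all genes), and its median was -0.43.

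**Figure D3:**
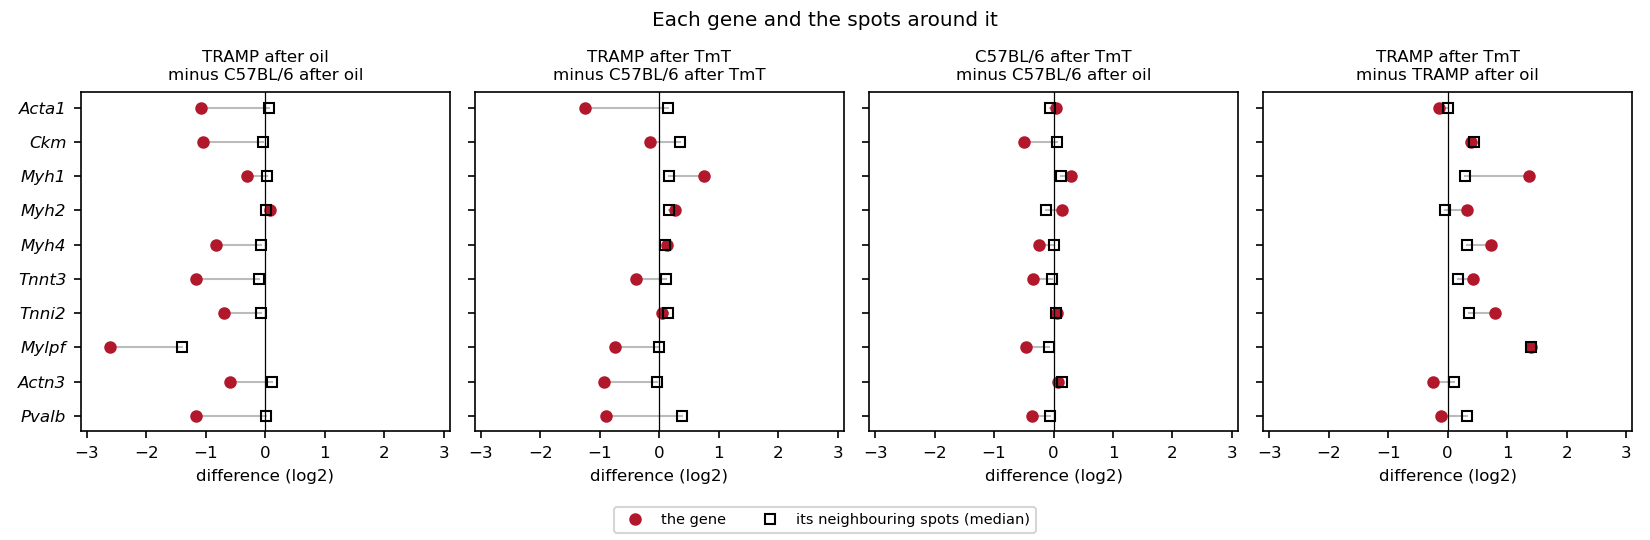
Difference (log2) of each gene (red) and the median of the spots within 5 rows and columns of it (black squares) in the 4 pairs of arrays. The 2 symbols of Mylpf lie together in TRAMP after TmT minus TRAMP after oil, at 1.41 both, and its neighbours sit at -1.40 in TRAMP after oil minus C57BL/6 after oil. None of the other genes shown has neighbours past 0.45 in size.

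Several genes have more than 1 probe, and these did not all give the same difference. Myh1, Myh2 and Myh4 lie side by side on chromosome 11 and encode near-identical proteins, so a probe of 1 may also take up RNA of another, and levels assigned to them are uncertain in that respect. The brightest Myh1 probe (chr11:67038002-67038061) lies on the strand opposite the other 2 Myh1 probes. RefSeq lists a noncoding RNA gene, Myhas, between Myh1 and Myh4 and overlapping Myh1, and which RNA this probe reads was not tested. The 2 gene-strand probes of Myh1 gave the same pattern: in TRAMP after TmT minus TRAMP after oil they were at 1.31 ± 0.20 and 0.95 ± 0.20, beside 1.37 for the brightest.

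Myh2 differed by probe. The brightest, shown above, was at 0.07 ± 0.20 in TRAMP after oil minus C57BL/6 after oil, whereas the 2 probes nearest the 3′ end were at -1.11 ± 0.20 and -2.21 ± 0.21. In TRAMP after TmT minus TRAMP after oil the brightest was at 0.33 ± 0.20 and the other 2 at 1.51 ± 0.20 and 2.36 ± 0.21. Those 2 probes overlap by 18 bases, CGCCTGTGTGATTCTATT (chromosome 11, capitals marking the shared stretch), so they are not independent readings. With local correction they stood at -1.003 and -1.87 in the first pair and 1.59 and 2.16 in the second. Their levels were 1.45 and 0.90 in TRAMP after TmT, -0.07 and -1.46 in TRAMP after oil, 1.19 and 1.17 in C57BL/6 after TmT, and 1.04 and 0.75 in C57BL/6 after oil: the TRAMP oil array is low for both. A Myh2 probe named for another transcript was not well above background on any array. The value of Myh2 thus depended on the probe, and with the probe nearest the 3′ end the group's median was -1.06 after oil and 0.57 for TmT in TRAMP.

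Tnnt3 had a second probe at -0.68 ± 0.20 after oil, short of 2-fold, and at -0.11 for TmT in TRAMP, beside -1.17 and 0.43 for the brightest. Myh4 had a second probe that carried an outlier mark on both TRAMP arrays, so no genotype difference was taken from it. It stood at -0.62 for TmT in C57BL/6, beside -0.24 for the brightest. The other 6 genes have 1 probe each.

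**Figure D4:**
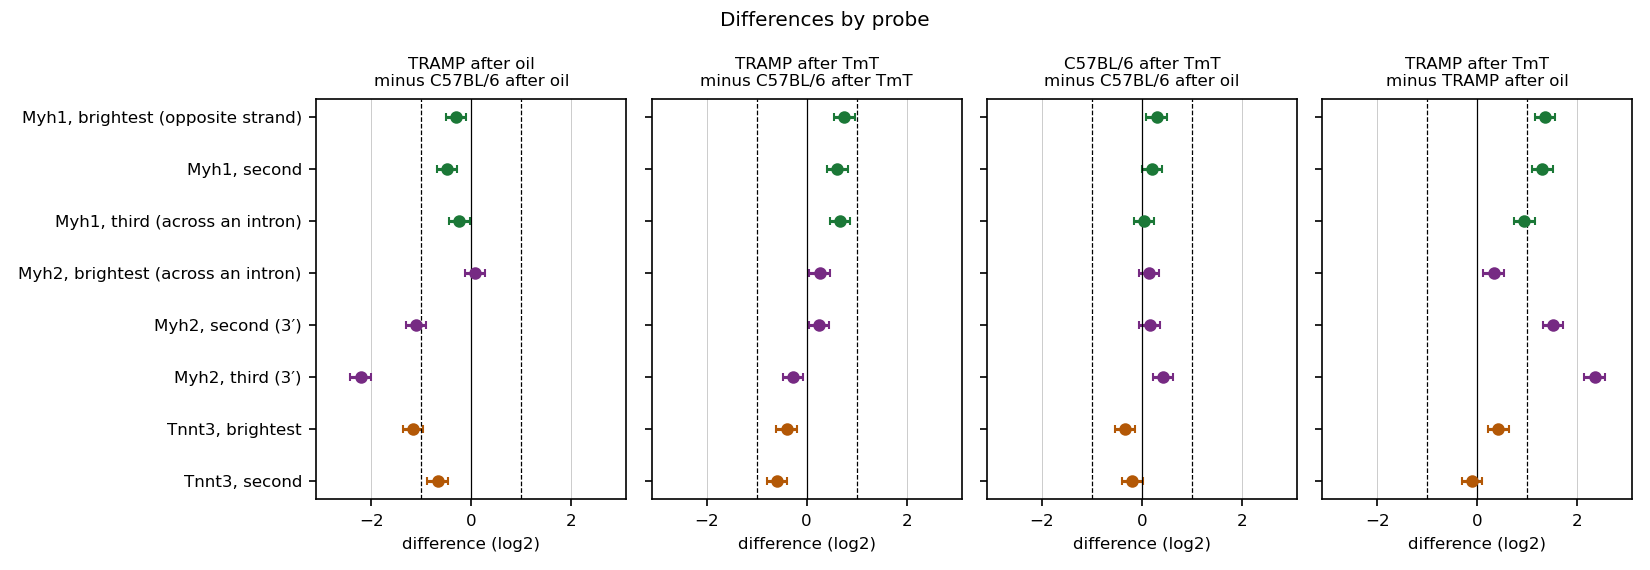
Difference (log2, with spot error) of each probe of Myh1 (green), Myh2 (purple) and Tnnt3 (brown) that was well above background on all 4 arrays, in the 4 pairs of arrays. The 3 Myh1 probes lie together, while the 3 Myh2 probes run from 0.07 to -2.21 in TRAMP after oil minus C57BL/6 after oil and from 0.33 to 2.36 in TRAMP after TmT minus TRAMP after oil.

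Other genes of striated muscle were read from 6 lists chosen with earlier results of these data known (fast fibre, slow fibre, sarcomere scaffold, excitation-contraction coupling and junction, energy metabolism, and myogenic or developmental genes). In TRAMP after oil against C57BL/6 after oil, 21 of 77 measured genes were at least 2-fold lower and 2 higher, against 7.84% lower and 7.74% higher over all genes. There 68 of 77 lay below 0, against 54.5% of all genes, with a median of -0.81. In TRAMP after TmT against C57BL/6 after TmT, 8 of 75 were lower and 2 higher, median -0.29, against 6.09% and 8.45% over all genes. For TmT against oil, 2 of 82 were higher and 4 lower in C57BL/6 (median -0.17), and 8 of 74 were higher and 1 lower in TRAMP (median 0.25). Over all genes 3.12% were higher and 2.63% lower in C57BL/6, and 8.66% and 4.86% in TRAMP, so the 2-fold counts of these lists for TmT lie near the background. Below 0 for TmT lay 56 of 82 in C57BL/6 (57 with local correction), against 48.0% of all genes. In TRAMP it was 21 of 74 (26 with local correction), against 44.1%. The medians over all genes were 0.02 in C57BL/6 and 0.10 in TRAMP. With local correction the counts in TRAMP after oil against C57BL/6 after oil were 25 lower and 2 higher, and those for TmT in TRAMP were 6 higher and 1 lower, where 7.25% of all genes were lower in the first pair and 7.68% higher in the second. In the limma fit, 0 of 82 genes of these lists passed for genotype or treatment, with a lowest limma adjusted p of 0.120, and 24 had an unadjusted p under 0.05 for genotype and 4 for treatment, against 15.1% and 6.26% of all genes in that fit.

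The slow-fibre list was low after oil, as the skeletal muscle genes above were. Csrp3, a muscle LIM protein of the Z disc, was at -2.68 ± 0.25, Casq2, a calcium store protein of slow and cardiac muscle, at -1.72 ± 0.21, and Tnnt1, slow troponin T, at -1.70 ± 0.16. The median over 10 measured genes was -0.75 and all were below 0. For TmT in TRAMP, Tnnt1 was at 1.74 ± 0.16 and Csrp3 at 1.18 ± 0.27. The spots around Tnnt1 had a median of -0.47 after oil, and its detrending factor was 0.45 on TRAMP after oil. With local correction Tnnt1 was at -1.45 after oil and 1.94 for TmT in TRAMP. Csrp3 was also at -1.30 ± 0.21 for TmT in C57BL/6. Casq2 was at -1.13 ± 0.23 in TRAMP after TmT against C57BL/6 after TmT. Myl2, the slow regulatory light chain, was not well above background on any array. Myh7, the slow heavy chain, was well above background on the C57BL/6 arrays only. Its C57BL/6 oil level was 2.89-fold that of the dimmest probe well above background on TRAMP after oil. Brighter genes also missed the background flag on that array (Phka1 at -3.63), so this is no strict bound.

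Among the other fast-fibre genes, Jsrp1, a junctional protein of the calcium release apparatus, was at -1.24 ± 0.27 and Mylk2, skeletal myosin light chain kinase, at -1.08 ± 0.20 in TRAMP after oil, and the 10 measured genes all lay below 0 with a median of -0.80. In TRAMP after TmT against C57BL/6 after TmT the median was -0.68, with Mylk2 at -1.67 ± 0.21, the calcium store protein Casq1 at -1.08 ± 0.21 and the fast essential light chain Myl1 at -1.02 ± 0.20. Tpm1, an alpha-tropomyosin of muscle, was at 1.15 ± 0.20 for TmT in TRAMP (0.91 with local correction), where the list's median was 0.07. Sypl2, a membrane protein of the calcium apparatus, was at -1.11 ± 0.21 for TmT in C57BL/6.

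The sarcomere scaffold list had 7 of 22 genes at least 2-fold lower in TRAMP after oil and a median of -0.90. Xirp2, an actin-binding protein of the Z disc region, was at -2.59 ± 0.22, Klhl41, a sarcomere-assembly protein, at -2.30 ± 0.22, and Myot, myotilin of the Z disc, at -1.71 ± 0.21. For TmT in TRAMP, Xirp2 was at 1.87 ± 0.22, Nrap, a scaffold of myofibril assembly, at 1.31 ± 0.21, and Klhl41 at 1.17 ± 0.22, with a median of 0.53 over 21 genes. Neighbouring spots were low here too: the neighbours of Xirp2 and Klhl41 had medians of -0.30 and -0.29 after oil, and with local correction Klhl41 fell short of 2-fold for TmT in TRAMP, at 0.63. Myom1, a myomesin of the M band, was at -1.15 ± 0.20 in TRAMP after TmT against C57BL/6 after TmT. Mybph, a myosin-binding protein, was at 1.08 ± 0.23 there (0.76 with local correction). Lmod2, which elongates thin filaments, was at 1.06 ± 0.23 for TmT in C57BL/6 (0.95 with local correction).

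Energy genes were among the lowest after oil, with 5 of 12 at least 2-fold lower and a median of -0.996. Ak1, adenylate kinase, was at -2.29 ± 0.20, Art1, a muscle ADP-ribosyltransferase, at -1.49 ± 0.24, and Ppp1r3a, a glycogen-targeting subunit of muscle phosphatase, at -1.46 ± 0.20. Ppp1r3a and Ckmt2, mitochondrial creatine kinase of striated muscle, were also at least 2-fold lower in TRAMP after TmT against C57BL/6 after TmT, both at -1.26. Phka1, a phosphorylase kinase subunit, was at 1.25 ± 0.31 there and at -1.86 ± 0.28 for TmT in C57BL/6. For TmT in TRAMP none of the 11 genes measured on both arrays was 2-fold different. Phka1 was 2.51-fold above its own reading on TRAMP after oil, and that reading was not well above background.

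In the coupling and junction list, Stac3, which links the muscle calcium channel to contraction, was at -2.27 ± 0.22 after oil and 1.25 ± 0.22 for TmT in TRAMP, and Cacng1, a subunit of that channel, was at -1.44 ± 0.21 after oil. The spots around Stac3 had a median of -0.09 after oil, and its detrending factor was 0.54 on TRAMP after oil. With local correction Stac3 was at -2.06 after oil and 1.46 for TmT in TRAMP. Clcn1, the muscle chloride channel, was at 1.19 ± 0.21 after oil. Chrna1, the acetylcholine receptor subunit of the junction, was well above background on the C57BL/6 arrays and not on the TRAMP arrays. Its C57BL/6 oil level was 5.99-fold that of the dimmest probe well above background on TRAMP after oil, again no strict bound. Among myogenic factors, Mef2c and Myf6 were at -1.55 ± 0.21 and -1.32 ± 0.21 after oil, and Mymk, the myomaker fusion protein, was at 2.47 ± 0.32 there and at 1.74 ± 0.33 for TmT in C57BL/6, where its C57BL/6 oil array was the dimmest. Trim63, a ubiquitin ligase of muscle wasting, was at -1.86 ± 0.26 in TRAMP after TmT against C57BL/6 after TmT and at -1.17 ± 0.26 for TmT in TRAMP. Mstn, myostatin, was at -1.24 ± 0.25 for TmT in C57BL/6. The list's medians were -0.49, -0.20, 0.01 and 0.07 in the 4 pairs, in the order of TRAMP against C57BL/6 after oil, the same after TmT, TmT in C57BL/6 and TmT in TRAMP.

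**Figure D5:**
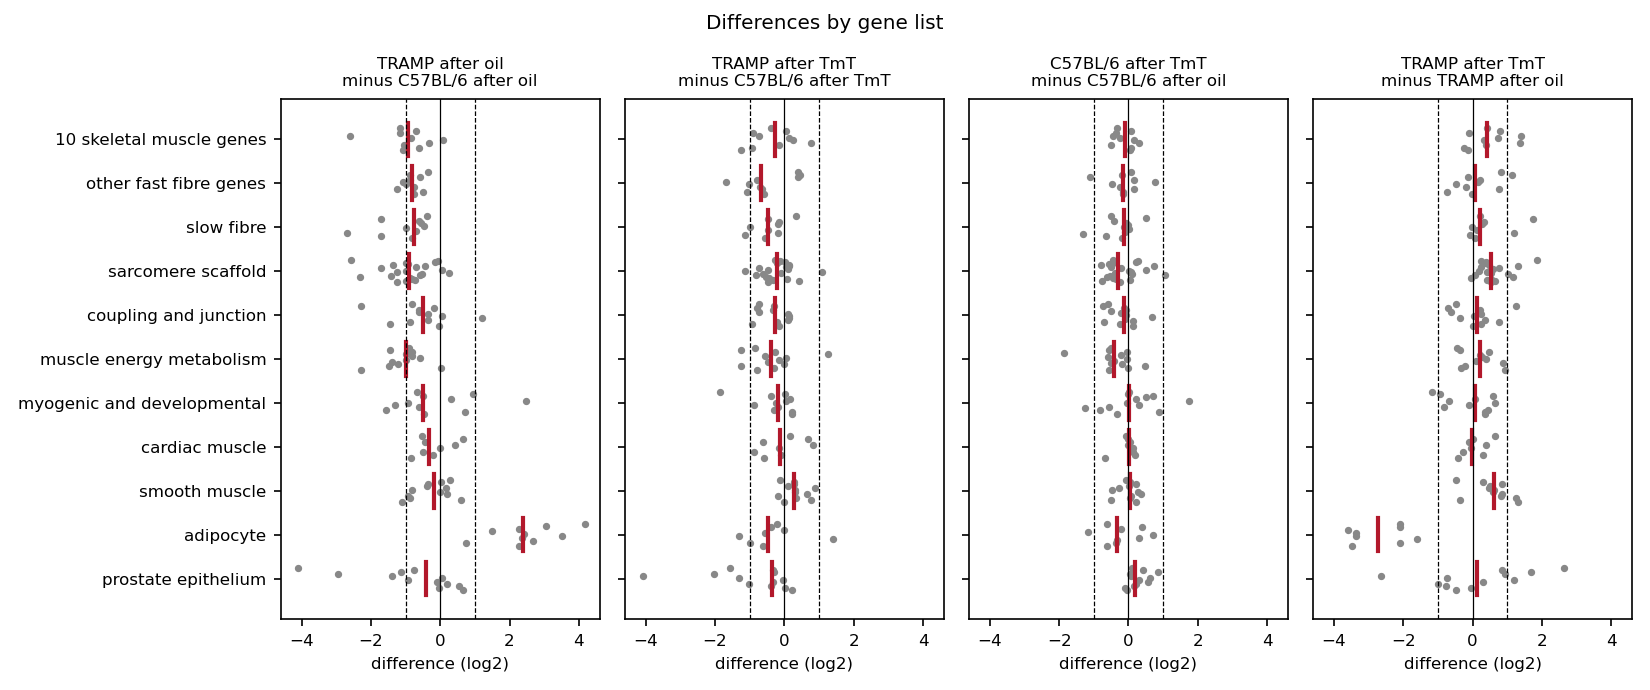
Difference (log2) of each gene (grey) measured on both arrays and the median (red bar) of each list, in the 4 pairs of arrays, with dashed lines at 2-fold. The striated lists lie left of 0 in TRAMP after oil minus C57BL/6 after oil, with list medians of -0.48 to -0.996 for the 6, while the adipocyte list lies at 2.39 there and at -2.73 in TRAMP after TmT minus TRAMP after oil.

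Markers of other cell types moved between the same arrays, and their part in the muscle values was not tested. Adipocyte markers were well above background in 8 of 12 on TRAMP after TmT, 11 of 12 on TRAMP after oil, 9 of 12 on C57BL/6 after TmT and 10 of 12 on C57BL/6 after oil, with summed signals of 34.3, 275, 32.7 and 55.1 times the array's 75th percentile in that order. Their median was 2.39 in TRAMP after oil minus C57BL/6 after oil, with Ucp1 at 4.18 ± 0.21 and Cidec at 3.50 ± 0.20, and -2.73 in TRAMP after TmT minus TRAMP after oil, with Fabp4 at -3.59 ± 0.20 and Adipoq at -3.49 ± 0.21. The adipocyte markers stood high on the array on which most muscle genes stood low. Lep was not well above background on any array. The sum of a list is weighted toward its brightest genes, here Fabp4 at a level of 7.59 in TRAMP after oil.

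Smooth muscle, which shares actin and myosin machinery with striated muscle, gave all 12 genes on all arrays, with summed signals of 435 in TRAMP after TmT, 338 in TRAMP after oil, 401 in C57BL/6 after TmT and 386 in C57BL/6 after oil, on the same scale. Its median was -0.18 in TRAMP after oil minus C57BL/6 after oil, and its highest value there was 0.61. The lowest was smooth muscle actin Acta2 at -1.11 ± 0.20 (-0.88 with local correction). The median was 0.62 in TRAMP after TmT minus TRAMP after oil, with Acta2 at 1.31 ± 0.20 and calponin Cnn1 at 1.25 ± 0.20. Cardiac muscle genes had 8 of 9 well above background on all 4 arrays, with summed signals of 9.80 in TRAMP after TmT, 11.4 in TRAMP after oil, 12.9 in C57BL/6 after TmT and 18.5 in C57BL/6 after oil. These sums rest mostly on Actc1, at a level of 3.94 in C57BL/6 after oil. None was at least 2-fold different in any pair, and in TRAMP after oil minus C57BL/6 after oil they ran from -0.84 to 0.65. With local correction Myh6, the cardiac alpha heavy chain, was at -1.43 in that pair. The prostate epithelium markers summed to 1092 in TRAMP after TmT, 593 in TRAMP after oil, 1674 in C57BL/6 after TmT and 1272 in C57BL/6 after oil, and Pbsn, whose rat counterpart's promoter drives the transgene, was at -2.95 ± 0.20 after oil and -2.04 ± 0.20 after TmT between the genotypes.

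Genes nearest in pattern to the group were sought outside all lists, by the mean absolute difference over 4 arrays between a gene's centred profile and the median centred profile of the 10 genes, among 16837 genes well above background on all arrays. That median profile was -0.12 in TRAMP after TmT, -0.53 in TRAMP after oil, 0.21 in C57BL/6 after TmT and 0.45 in C57BL/6 after oil. The nearest were S1pr3 (Edg3 in the files), 1810009N02Rik, Prr15, Fmo2, Capn5, Mob3a, Gdpgp1, Phactr3, Slc2a9 and Gimap6, at 0.018 to 0.040. Of the muscle genes themselves, Tnnt3 at 0.065 and Ckm at 0.075 were closest to their own median and Mylpf at 0.512 the farthest. Of the 16837 genes, 0.303% were nearer to the median than Tnnt3, 53.5% than Myh2, 62.9% than Myh1 and 70.7% than Mylpf. The 10 genes set that median themselves, so their nearness to it is no check. With 4 arrays, a near match is a description only.

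Promoters of 7 of the 10 genes were in the RefSeq table used here (GRCm38.p6, 250 bases before to 50 after the start, 8 promoters in all). Acta1, Myh1 and Myh4 are shown because they hold most of the matches to muscle motifs and stand for the thin and the thick filament. Capitals mark matches to the CArG box, the MEF2 site and the TATA box (TATAAA), on either strand.
Acta1 (chr8:123894726-123895025, minus strand): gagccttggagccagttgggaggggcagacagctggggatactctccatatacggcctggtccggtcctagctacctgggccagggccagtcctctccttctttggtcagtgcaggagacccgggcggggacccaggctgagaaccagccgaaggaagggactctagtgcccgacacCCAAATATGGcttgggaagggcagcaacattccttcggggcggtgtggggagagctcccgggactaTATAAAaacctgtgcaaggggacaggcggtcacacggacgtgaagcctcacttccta
Myh1 (chr11:67199852-67200151, plus strand): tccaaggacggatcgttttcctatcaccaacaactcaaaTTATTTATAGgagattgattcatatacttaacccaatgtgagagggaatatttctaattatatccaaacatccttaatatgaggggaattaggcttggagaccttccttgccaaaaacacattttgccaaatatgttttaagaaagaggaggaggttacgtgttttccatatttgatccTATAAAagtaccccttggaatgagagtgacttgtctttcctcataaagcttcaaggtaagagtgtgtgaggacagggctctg
Myh4 (chr11:67237562-67237861, plus strand): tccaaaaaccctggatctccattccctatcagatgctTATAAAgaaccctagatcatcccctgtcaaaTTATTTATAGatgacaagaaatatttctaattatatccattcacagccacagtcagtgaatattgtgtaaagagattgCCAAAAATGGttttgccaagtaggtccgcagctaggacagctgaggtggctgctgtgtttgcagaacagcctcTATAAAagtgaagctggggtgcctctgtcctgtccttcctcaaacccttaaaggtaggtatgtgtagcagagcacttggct

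The CArG box, bound by serum response factor, was found in the promoters of 2 of the 7 genes, Acta1 and Myh4, and in 1.63% of 32851 promoters. The MEF2 site, bound by myocyte enhancer factors, was found in 3 (Myh1, Myh4 and Pvalb) and in 3.19% of all promoters. In Myh1 and Myh4 its match was the same TTATTTATAG and held a TATAAA on the reverse strand, so the 2 motifs overlap there. TATAAA was found in 4 of 7 and in 13.6% of all, the E-box CANNTG, bound by the MyoD family, in 5 of 7 and in 72.3%, and the MCAT element CATTCC, bound by TEAD factors, in 3 of 7 and in 14.7%. Genes with and without the CArG box were both at least 2-fold lower in TRAMP after oil (Acta1 with it, Mylpf without), and matches were not tested for binding.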

How the data were processed

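Prostate RNA of 4 groups was read on 1 array each, all on 1 slide in 1 scan, each group at its own position. The deposited intensity values are the processed signal of Agilent Feature Extraction 10.2.1.3, which per the file headers had its background subtracted and, except on TRAMP after TmT, was also corrected for trends across the array. The deposited value table held these same intensities for all 45018 features.

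Control spots and spots with an outlier mark were left out (178, 348, 207 and 131 marked on TRAMP after TmT, TRAMP after oil, C57BL/6 after TmT and C57BL/6 after oil). Values are log2 of the deposited intensity minus log2 of the array's 75th percentile (71.3, 139, 118 and 161 in the same order). Spots of a probe were averaged. Symbols were updated through RefSeq for probes with a matching accession (24844 of 41174). A call needed 2-fold on arrays both well above background, and with 1 array per group carries no test. limma 3.58.1 in R 4.3.3 fitted genotype and treatment to the genes that passed the background flag on 2 or more arrays, and was tested on simulated data.

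The members and the gene lists were chosen with earlier results of these data known. Named are all members, at most the 3 highest and 3 lowest 2-fold genes of each list per comparison, and the 10 nearest patterns. Genes named for an array on which they were not well above background were chosen after their values were seen, as was the neighbouring-spot check. Alternatives changed centring, normalization, background, detrending, probes, filters and fold.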

Additional observations from a re-analysis of the deposited data

How the results depend on the processing

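No paired analysis was possible because each group has 1 array and the labels number no replicates. Of the alternative values, 155 summary values stayed close to those reported and 25 moved. Of 640 single-gene values, 36 took the other sign, none of them from a reported difference of 2-fold or an adjusted p under the threshold. Part of this agreement was fixed in advance and is no check. The deposited value table held the same intensities, so it could change no value. Detrending on all 4 arrays altered only the TRAMP TmT array, so the pairs of arrays without it could not change. The mean of all probes could not move the difference of a gene with 1 probe. Reading Myh1 and Myh2 by other probes could not move the other genes. The muscle genes were well above background on all 4 arrays, and their brightest probes carried no outlier mark. Dropping the filter on dim probes or keeping outlier-marked spots thus left their median difference unchanged in all 4 pairs. Myh2 in TRAMP after oil minus C57BL/6 after oil was -0.82 with normexp, -0.77 with the mean of all probes and -2.21 with its 3′ probe. With normexp, Tnnt3 and Myh4 in TRAMP after TmT minus TRAMP after oil were -0.35 and -0.08, Ckm for TmT in C57BL/6 was 0.23, and Myh4 in TRAMP after TmT minus C57BL/6 after TmT was -0.25. In the limma fit, with no adjusted p under the threshold, Myh2 for genotype was -0.28 with the mean of all probes and -0.43 with normexp. For treatment there, normexp gave Ckm 0.43, Myh4 -0.32, Tnni2 -0.070 and Tnnt3 -0.54, local correction gave Mylpf -0.25 and Tnnt3 -0.0015, and Tnnt3 was -0.17 with detrending undone, -0.052 with the mean of all probes and -0.047 with quantile normalization. In TRAMP after oil minus C57BL/6 after oil, the count of 5 genes at least 2-fold lower was 2 with quantile normalization, 3 with normexp background correction, 3 with detrending undone and 1 at 3-fold. The median was -0.73 with detrending undone (-0.02 over all genes). Of all genes, 15.6% were at least 2-fold different in either direction there as reported. That share was 15.6% with quantile normalization, 5.94% with normexp and 16.9% with detrending undone. No share over all genes was taken at 3-fold. In TRAMP after TmT minus C57BL/6 after TmT, the count of 1 lower was 2 with median centring, with detrending undone, with detrending on all 4 arrays and with local spot correction, and 0 at 3-fold. The share of all genes different in either direction was then 14.8%, 14.4%, 14.3% and 14.1% in the order of those settings without 3-fold. The median was -0.54 with normexp (0.10 over all genes). In TRAMP after TmT minus TRAMP after oil, the count of 2 higher was 1 with normexp, 1 with local spot correction and 0 at 3-fold. The share of all genes different in either direction was 6.17% with normexp and 11.5% with local spot correction. The median was 0.00028 with normexp (0.17 over all genes) and 0.16 with detrending undone (0.05 over all genes).

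For genotype in the limma fit, the 27 genes called over all genes were 76 with median centring, 186 with local spot correction, 1336 with normexp and 0 with quantile normalization, with detrending undone, with the mean of all probes or with outlier-marked spots kept (2939, 2941, 2942 and 2944 genes at an unadjusted p under 0.05). With normexp 4 of the 10 muscle genes passed for genotype (Acta1, Tnnt3, Mylpf and Pvalb) and 523 genes over all for treatment. The Mylpf spot lies among the low spots of the TRAMP oil array described above. Its fitted genotype difference was -1.68 as reported and -2.02 with normexp. With local spot correction it was -0.92 (limma adjusted p = 0.266) and did not pass. Whether normexp left those low spots uncorrected was not tested. The normexp setting left out 4 spots on TRAMP after TmT and 15 on C57BL/6 after TmT for absurd local backgrounds. Its gene variances were all taken as equal, and the cause of the other changes was not tested. With normexp the median of all genes in TRAMP after oil minus C57BL/6 after oil was 0.05 in place of -0.07. Depth is set by signal over background, and the error of a Ckm difference reached 0.28.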
